A study of Mus musculus with 2 samples.

Results

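S-phase-leaning cycling cells are taken here as skin innate lymphoid cells (ILCs, lymphocytes that carry no rearranged antigen receptor) from how they were sorted. Their selection used no lineage gene, and antigen receptor rearrangement was not read. Their RNA holds proliferation transcripts, and more transcripts of 6 chosen DNA replication genes than of 6 chosen mitosis genes. There were 330 such cells among 5246 deposited cells. Each was chosen by 3 readings of its own UMIs (molecular tags that count an RNA molecule once). At most 10% of its UMIs came from the 13 mitochondrially encoded genes. It held at least 3 UMIs of Mki67, Top2a and Birc5 together. Its summed UMIs of Mcm3, Mcm5, Mcm6, Rrm2, Tyms and Uhrf1, called the S phase sum here, exceeded those of Ccnb1, Cdc20, Cenpe, Cenpf, Plk1 and Ube2c, called the mitosis sum.

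The study sorted CD45+, Lin-, Thy1.2+ cells from the skin, digested with collagenase, of C57/BL6 mice. Their ages were postnatal day 14 and postnatal day 1, with 1 library each on the Chromium 5' chemistry of 10x Genomics. The sources used here do not say how many animals were pooled or of which sex. Cell names end in _1 or _2, called set 1 and set 2. Neither suffix names an age, so no cell was assigned to a day and both sets are described side by side. The comparisons are between 3 classes of the same set. S-phase-leaning cells are set against mitosis-leaning cells, which meet the same proliferation cutoff with the larger mitosis sum, and against non-cycling cells, which hold 0 UMIs of Mki67, Top2a and Birc5. There were no replicates and no test was run. All intervals are 95% intervals of counting error, and differences between animals or libraries lie outside them.

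A dividing cell loads the MCM helicase onto replication origins in G1, fires those origins in S phase, and copies its DNA with polymerases that travel with the sliding clamp PCNA. Deoxynucleotides and new histones must be made in step with the copying. The E2F transcription factors switch on the genes for this work ahead of and during S phase, whereas the cyclin B, kinetochore and spindle genes peak later, through promoters that carry CHR and CCAAT elements. ILC2s, the main ILC type of skin, renew themselves largely by division within the tissue.

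E2F words were more frequent in the promoters of replication genes than in those of mitosis genes. The RefSeq promoters of build GRCm38.p6 were read from 250 bases before to 50 bases after each annotated start. The 4 E2F words TTTGGCGC, TTTCCCGC, TTTCGCGC and TTTGCCGC were searched on both strands. The windows below are a choice of matches that lie before the start, from replication genes named in the results. They are read 5′ to 3′ on the gene's strand. Not every named gene had such a match. Rrm2, Tyms, Ccne2 and E2f1 gave no window, and Mcm3, Lig1, Pclaf and Clspn matched only across or past the start. Mcm6, Mcm7 and Ccnb2 each held another match that is not printed. Capitals mark the matched bases, and the longer runs of capitals in Mcm5 and Mcm6 are a pair of overlapping matches on opposite strands. The last window, from the cyclin B2 gene Ccnb2, is shown for contrast and its capitals mark the CHR word TTTGAA.
Mcm5, chr8:75109332-75109391, plus strand, match starting 153 bases before the start: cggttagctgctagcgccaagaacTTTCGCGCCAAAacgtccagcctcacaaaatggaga
Mcm6, chr1:128359780-128359839, minus strand, 110 bases before the start: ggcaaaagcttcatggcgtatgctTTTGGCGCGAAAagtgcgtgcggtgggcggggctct
Uhrf1, chr17:56304104-56304159, plus strand, 185 bases before the start: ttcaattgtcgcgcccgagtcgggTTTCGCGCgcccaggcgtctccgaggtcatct
Cdc6, chr11:98907989-98908044, plus strand, 138 bases before the start: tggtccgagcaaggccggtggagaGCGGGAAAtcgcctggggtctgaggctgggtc
Mcm7, chr5:138172017-138172072, minus strand, 165 bases before the start: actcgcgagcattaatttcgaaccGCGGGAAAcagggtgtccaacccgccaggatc
Hells, chr19:38930904-38930959, plus strand, 62 bases before the start: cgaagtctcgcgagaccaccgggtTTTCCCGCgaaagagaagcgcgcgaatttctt
Ccnb2, chr9:70421692-70421745, minus strand, 167 bases before the start: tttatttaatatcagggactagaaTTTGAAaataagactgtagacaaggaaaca

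An E2F word stood in the promoters of 10 of the 19 matched origin and helicase genes, of 8 of the 23 matched polymerase and fork genes, and of 4 of the 6 genes of the S phase sum. Over all 27025 genes with a promoter in the table the share was 2.61%, and it was 4.01% over the genes with UMI counts. The deoxynucleotide synthesis genes held it in 0 of 12 promoters, and the mitosis genes in 2 of 45 (4.44%). The CHR word showed the opposite pattern, with 31 of 45 mitosis promoters (68.9%) against 8 of 54 promoters of the 3 replication lists together (14.8%) and 20.2% of all genes. CCAAT, searched on both strands too, was found in 33 of 45 mitosis promoters (73.3%), in 29 of the 54 replication promoters (53.7%), among them 13 of 19 origin and helicase promoters (68.4%), and in 41.1% of all genes. These matches describe letters in a window. Factor binding was not measured.

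S-phase-leaning cells were common in set 1 and rare in set 2. They made up 247 of 1441 kept cells in set 1 (17.1%, 15.2 to 19.2%) and 83 of 3508 in set 2 (2.37%, 1.89 to 2.92%). Among cycling cells, those with at least 3 UMIs of the proliferation genes, their share was 54.8% in set 1 (50.04 to 59.4%) and 46.9% in set 2 (39.4 to 54.5%), and these intervals overlap. Mitosis-leaning cells numbered 181 in set 1 and 63 in set 2, and non-cycling cells 734 and 2923. The cycling cells left over had equal sums, 23 in set 1 and 31 in set 2, of which 13 and 24 held 0 UMIs of both sums.

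S-phase-leaning cells held more UMIs than non-cycling cells. S-phase-leaning cells held a median of 16080 UMIs (15306 to 16800) and 3452 genes in set 1, against 8865 UMIs (8533 to 9331) and 2359 genes in non-cycling cells, a ratio of 1.81 in UMIs. In set 2 the medians were 9086 UMIs (8646 to 10168) and 2588 genes in S-phase-leaning cells, against 4653 UMIs (4571 to 4739) and 1497 genes in non-cycling cells, a ratio of 1.95. Mitosis-leaning cells were close in depth to S-phase-leaning ones, with 15333 UMIs in set 1 and 9450 in set 2. A cutoff in UMIs is passed more easily by a cell with more UMIs. With every cell thinned to 4000 UMIs and the rule applied to the thinned counts, the share was 9.92% in set 1 and 2.47% in set 2. Shallower cells were left out here too, so the base was 1381 of 1441 kept cells in set 1 and 2427 of 3508 in set 2. The shares before and after thinning are therefore not over the same cells, above all in set 2. Wherever shares of thinned cells are given below, shallower cells were left out, namely 1 S-phase-leaning, 1 mitosis-leaning and 48 non-cycling cells of set 1 and 2, 5 and 985 of set 2. In all, S-phase-leaning cells held 4039366 UMIs in set 1 and 837063 in set 2. The median mitochondrial share was 3.14% in S-phase-leaning and 3.35% in non-cycling cells of set 1, and 2.01% and 2.71% in set 2.

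The genes of the rule describe how the cells were selected and support nothing by themselves. The median S-phase-leaning cell held 12 UMIs of the S phase sum and 3 of the mitosis sum in set 1, and 9 and 1 in set 2. Mcm5, a subunit of the replicative helicase, stood at 125 CPM (UMIs per 1000000, over the summed UMIs of a class) in S-phase-leaning, 64.0 in mitosis-leaning and 20.8 in non-cycling cells of set 1. In set 2 Mcm5 stood at 162, 42.0 and 6.87 CPM. Rrm2, the regulated subunit of ribonucleotide reductase, stood at 112, 32.9 and 3.92 CPM in set 1 and at 189, 59.7 and 2.93 CPM in set 2. At the edge of the rule, 24 cells of set 1 and 11 of set 2 held exactly 3 proliferation UMIs, and their median S phase sums were 5.5 and 1.0. Just outside it, 44 and 24 cells held 2 proliferation UMIs with the larger S phase sum. The margin between the sums was a single UMI in 20 members of set 1 and 7 of set 2, and the mitosis sum led by a single UMI in 11 and 9 other cycling cells.

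**Figure D1:**
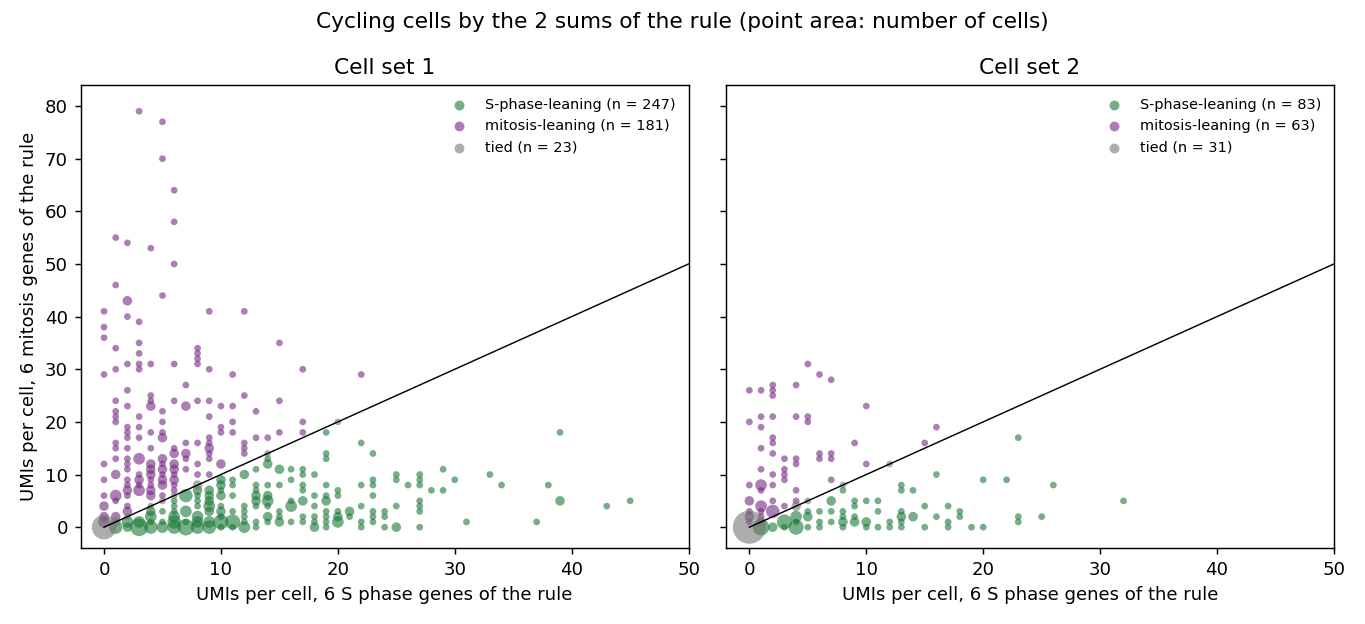
Cycling cells of each set by their S phase sum (x axis, UMIs per cell) and their mitosis sum (y axis, UMIs per cell), with point area giving the number of cells and the line marking equal sums. The S-phase-leaning cells lie below the line, with medians of 12 and 3 UMIs in set 1 and 9 and 1 UMIs in set 2, and cells lie close to the line in both sets.

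Cell-cycle genes led the comparison of S-phase-leaning with non-cycling cells in both sets. A gene was counted when its ratio of CPM + 10 passed 2-fold and it had at least 100 UMIs over both classes, with the 15 rule genes, mitochondrial genes and ribosomal protein genes left out. In set 1, 257 of 6893 genes were higher (3.73%) and 24 lower (0.348%) in S-phase-leaning cells. In set 2, 313 of 7418 were higher (4.22%) and 58 lower (0.782%). The rule selects on proliferation genes, so these counts describe the choice. These shares of all genes are to be read beside each list count over non-cycling cells below. Scaling by TMM factors moved the median gene of this set 2 comparison by -0.21 on the log2 scale and gave 220 higher and 107 lower. It moved the median by -0.02 in set 1. Among the 6542 genes counted in both sets, 163 were higher in set 1 and 309 in set 2, and the 156 shared ones were 95.7% of the first list and 50.5% of the second. Of 14 lower genes in set 1 and 44 in set 2, 4 were shared. No gene was past the fold in opposite directions.

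Against mitosis-leaning cells the differences were few. Of 5880 genes in set 1, 17 were higher (0.289%) and 15 lower (0.255%) in S-phase-leaning cells. Of 2022 in set 2, 29 were higher (1.43%) and 17 lower (0.841%). The rule itself splits cycling cells along this axis, so these counts too are a description of the choice. The same holds for replication and mitosis genes set against mitosis-leaning cells below. The shares in this paragraph are to be read beside each list count over mitosis-leaning cells.

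Genes that load and fire replication origins were higher in S-phase-leaning cells, as were members of the same helicase that the rule did not use. Of 21 measured origin and helicase genes (at least 20 UMIs over both classes), 13 passed 2-fold over non-cycling cells in set 1 and 0 were lower. In set 2 it was 13 of 18, with 0 lower. Over mitosis-leaning cells, 3 of 21 passed in set 1 and 7 of 16 in set 2. The median log2 ratio of the list over non-cycling cells was 1.21 in set 1 and 1.62 in set 2, beside 0.02 and 0.07 over all genes tested. Over mitosis-leaning cells it was 0.48 and 0.93, beside -0.03 and -0.02.

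Cdc6, the factor that loads the helicase onto origins, gave one of the widest separations. It stood at 64.1 CPM in S-phase-leaning, 15.9 in mitosis-leaning and 1.96 in non-cycling cells of set 1, and at 43.0, 12.9 and 0.787 CPM in set 2. The ratio over mitosis-leaning cells was 4.03 (2.93 to 5.66) in set 1 and 3.33 (1.52 to 8.30) in set 2, the last from 36 and 8 UMIs. Thinned to 4000 UMIs, 17.9% of S-phase-leaning, 3.33% of mitosis-leaning and 0.875% of non-cycling cells of set 1 held a Cdc6 UMI, and 17.3%, 5.17% and 0.258% in set 2. Unthinned, the Cdc6 shares were 46.6%, 20.4% and 1.77% in set 1 and 30.1%, 6.35% and 0.342% in set 2. Mcm7, a helicase subunit outside the rule, stood at 106, 41.7 and 19.9 CPM in set 1 and at 146, 50.04 and 15.9 CPM in set 2. Gins2, part of the GINS complex that activates the helicase, stood at 41.1, 8.84 and 12.5 CPM in set 1 and at 46.6, 9.68 and 2.72 CPM in set 2.

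Gmnn encodes geminin, which blocks re-licensing until mitosis, and stood at 134, 88.0 and 14.8 CPM in set 1 and at 125, 87.2 and 8.30 CPM in set 2. Dbf4, the activator of the origin-firing kinase, did not follow that order and was lower than in mitosis-leaning cells of set 1, with 76.5 CPM in S-phase-leaning, 124 in mitosis-leaning and 39.3 in non-cycling cells of set 1. In set 2 it stood at 81.2, 115 and 32.8 CPM. Its ratio over mitosis-leaning cells was 0.615 (0.526 to 0.718) in set 1 and 0.709 in set 2, where the interval reached 1 (0.501 to 1.00).

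The polymerases and their fork partners made up the most uniform list. Of 28 measured genes, 22 passed 2-fold over non-cycling cells in set 1, and 26 of 27 did in set 2, with 0 lower in either. All 28 lay above zero over mitosis-leaning cells in set 1, with a median log2 ratio of 0.70, and the 27 measured in set 2 lay above zero with a median of 0.79. The list summed to 1946 CPM in S-phase-leaning, 1016 in mitosis-leaning and 546 in non-cycling cells of set 1, and to 2152, 946 and 402 CPM in set 2. Lig1, the ligase that seals Okazaki fragments, stood at 190, 53.7 and 31.8 CPM in set 1 and at 223, 40.4 and 12.2 CPM in set 2. Its ratio over mitosis-leaning cells was 3.53 (2.97 to 4.23) and 5.54 (3.64 to 8.78), and over non-cycling cells 5.98 (5.12 to 6.99) and 18.3 (14.8 to 22.6). A Lig1 UMI was found in 48.8% of thinned S-phase-leaning, 17.8% of mitosis-leaning and 10.9% of non-cycling cells of set 1, and in 53.1%, 13.8% and 4.08% in set 2. Before thinning, Lig1 was found in 86.6%, 46.96% and 18.7% of the 3 classes of set 1 and in 72.3%, 26.98% and 4.86% in set 2.

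Pcna, the sliding clamp, stood at 148 CPM in S-phase-leaning, 68.2 in mitosis-leaning and 43.5 in non-cycling cells of set 1, and at 248, 88.8 and 45.6 CPM in set 2. Pclaf, a small protein that binds the clamp, was named by its ratio in both sets. It stood at 609, 297 and 14.6 CPM in set 1 and at 734, 397 and 3.79 CPM in set 2, which is 41.7-fold (34.03 to 51.6) and 194-fold (146 to 261) over non-cycling cells. Clspn, the claspin adaptor of the replication checkpoint, stood at 152, 64.7 and 4.67 CPM in set 1 and at 128, 53.3 and 5.51 CPM in set 2. Rfc1, the large subunit of the clamp loader, stood at 121, 58.0 and 46.8 CPM in set 1 and at 104, 29.1 and 34.7 CPM in set 2. For each of these 4 genes, S-phase-leaning cells were the highest class in both sets.

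**Figure D2:**
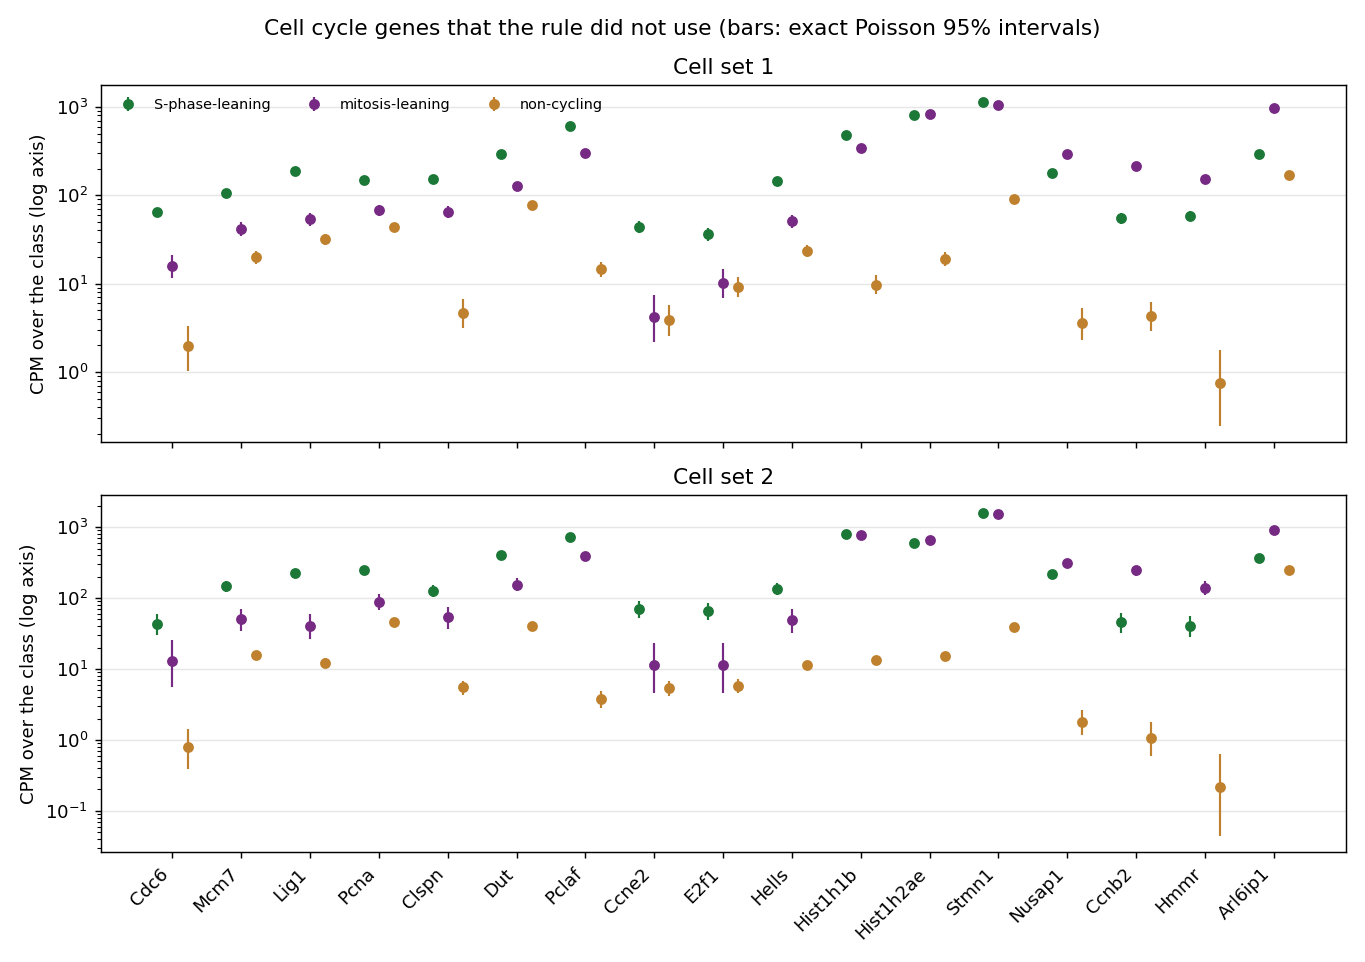
CPM (log axis) of cell-cycle genes outside the rule in S-phase-leaning, mitosis-leaning and non-cycling cells of each set, with exact Poisson 95% intervals as bars. Replication genes such as Lig1 (190, 53.7 and 31.8 CPM in set 1) are highest in S-phase-leaning cells, and Ccnb2 (54.7, 216 and 4.37 CPM) is highest in mitosis-leaning cells.

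Of 12 measured genes of deoxynucleotide metabolism, 6 passed 2-fold over non-cycling cells in set 1 with 0 lower, and 7 passed in set 2 with 1 lower. Below zero on the log2 scale were 2 of the 12 in each set, Samhd1 and Rrm2b. Dut, which removes dUTP, stood at 294 CPM in S-phase-leaning, 129 in mitosis-leaning and 76.8 in non-cycling cells of set 1, and at 399, 155 and 40.1 CPM in set 2. Tk1, the S phase thymidine kinase, stood at 64.9, 32.9 and 4.52 CPM in set 1 and at 104, 33.9 and 5.29 CPM in set 2.

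Samhd1, which hydrolyses deoxynucleotides, was the lower one. It stood at 123, 140 and 229 CPM in set 1 and at 68.1, 50.04 and 149 CPM in set 2, and its ratio over non-cycling cells was 0.537 (0.484 to 0.595) and 0.458 (0.345 to 0.595). Thinned to equal depth, 29.7% of S-phase-leaning, 32.2% of mitosis-leaning and 45.2% of non-cycling cells of set 1 held a Samhd1 UMI, and 22.2%, 13.8% and 33.5% in set 2. Unthinned, the Samhd1 shares were 61.9%, 69.6% and 58.99% in set 1 and 38.6%, 26.98% and 35.3% in set 2. Slc29a1, a nucleoside transporter, was the 1 member of the nutrient transport list past 2-fold over non-cycling cells in each set, at 58.2, 30.05 and 17.2 CPM in set 1 and at 66.9, 25.8 and 16.7 CPM in set 2. Purine and pyrimidine synthesis genes moved less, with 0 of 20 past 2-fold in set 1 and 6 of 20 in set 2. Mthfd2, a mitochondrial folate enzyme of that list, stood at 76.7, 47.7 and 38.4 CPM in set 1 and at 77.7, 43.6 and 19.9 CPM in set 2.

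Replication histone transcripts separated cycling from non-cycling cells, while few of them were past 2-fold between the S-phase-leaning and the mitosis-leaning class. Of 50 measured histone genes, 32 passed 2-fold over non-cycling cells in set 1, and 30 of 46 did in set 2. Over mitosis-leaning cells 0 of 50 were past 2-fold in either direction in set 1, and in set 2 0 of 43 were higher and 5 lower. The list summed to 4952 CPM in S-phase-leaning, 5072 in mitosis-leaning and 753 in non-cycling cells of set 1, and to 5888, 8009 and 1181 CPM in set 2. Of the 58 histone genes in the table, 22 lie at chr13:21715763-22043676, 28 at chr13:23531050-23764406 and 7 at chr3:96219865-96270132 of GRCm38, as GENCODE M21 places them. Many copies are near-identical, so how the authors' counting divided reads among them is uncertain. How well the library chemistry captured histone mRNA was not measured either. The histone values therefore describe UMIs counted and not the histone mRNA content of the cells.

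Hist1h1b, a linker histone H1 gene, stood at 483, 341 and 9.79 CPM in set 1 and at 791, 780 and 13.4 CPM in set 2. Its ratio over non-cycling cells was 49.4 (38.6 to 64.2) and 59.1 (50.2 to 69.9). Hist1h2ae, an H2A gene, stood at 812, 833 and 19.1 CPM in set 1 and at 595, 663 and 15.02 CPM in set 2. Hist1h3c, an H3 gene, stood at 215, 196 and 3.16 CPM in set 1 and at 333, 395 and 0.572 CPM in set 2. Hist1h1c and Hist1h2bc did not share that pattern: Hist1h1c stood at 229, 221 and 237 CPM in set 1 and at 270, 397 and 318 CPM in set 2. Hist1h2bc stood at 258, 396 and 216 CPM in set 1 and at 276, 985 and 222 CPM in set 2, so in set 2 S-phase-leaning cells held 0.280 of the mitosis-leaning level (0.240 to 0.327).

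Of 17 measured genes of replication-coupled chromatin, 13 passed 2-fold over non-cycling cells in set 1 and 15 in set 2, with 0 lower. Over mitosis-leaning cells 1 was higher and 1 lower past 2-fold in set 1, and 4 and 1 in set 2. The list summed to 9446 CPM in S-phase-leaning, 11197 in mitosis-leaning and 3635 in non-cycling cells of set 1, and to 10979, 12572 and 3751 CPM in set 2. Slbp binds the stem loop of histone mRNA, and unlike the histones themselves it was higher than in mitosis-leaning cells, at 265, 131 and 84.9 CPM in set 1 and at 294, 118 and 115 CPM in set 2. Hells, a chromatin remodeller, stood at 145, 50.9 and 23.3 CPM in set 1 and at 136, 48.4 and 11.2 CPM in set 2. Dnmt1, which copies DNA methylation onto the new strand, stood at 118, 65.4 and 28.3 CPM in set 1 and at 145, 64.6 and 25.2 CPM in set 2. Over mitosis-leaning cells, 10 of the 17 lay above zero on the log2 scale and 7 below in each set. Hmgb2 and Cenpa were among those higher in the mitosis-leaning class. Hmgb2, a high-mobility-group protein, stood at 2737, 4421 and 737 CPM in set 1 and at 2825, 4536 and 921 CPM in set 2. Cenpa, the histone variant of centromeres, stood at 195, 464 and 208 CPM in set 1 and at 246, 562 and 434 CPM in set 2, so S-phase-leaning cells held no more of it than non-cycling cells.

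Of the DNA repair and checkpoint genes, 14 of 29 passed 2-fold over non-cycling cells in set 1 and 15 of 25 in set 2, with 0 lower. Brca1, which acts in homologous recombination, stood at 54.5, 26.9 and 2.11 CPM in set 1 and at 40.6, 9.68 and 1.00 CPM in set 2. Ung, which removes uracil from DNA, had few UMIs, and stood at 13.4, 0.707 and 7.38 CPM in set 1 and at 15.5, 3.23 and 14.1 CPM in set 2. Its ratio over mitosis-leaning cells rested on 54 against 2 UMIs in set 1 and on 13 against 2 in set 2, and was 18.9 (4.99 to 160) and 4.81 (1.09 to 43.9).

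Among G1 and S phase regulators, 14 of 24 measured genes passed 2-fold over non-cycling cells in set 1, with 0 lower, and 13 of 21 in set 2, with 1 lower. Ccne2 encodes cyclin E2, the partner of Cdk2 at the start of S phase. It stood at 43.8 CPM in S-phase-leaning, 4.24 in mitosis-leaning and 3.92 in non-cycling cells of set 1, and at 69.3, 11.3 and 5.36 CPM in set 2. The ratio over mitosis-leaning cells was 10.3 (5.77 to 20.4) in set 1 and 6.13 (2.79 to 15.9) in set 2, and in set 1 it ranked first on CPM + 10 among the named genes of that comparison. E2f1, an activating E2F factor, stood at 36.1, 10.3 and 9.19 CPM in set 1 and at 65.7, 11.3 and 5.72 CPM in set 2. In thinned cells, 12.2% of S-phase-leaning, 6.67% of mitosis-leaning and 3.06% of non-cycling cells of set 1 held an E2f1 UMI, and 27.2%, 1.72% and 2.06% in set 2. Before thinning, E2f1 was found in 42.5%, 15.5% and 7.63% of the 3 classes of set 1 and in 50.6%, 11.1% and 2.43% in set 2.

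Mcm10 and Mybl2 had under 10 UMIs in the non-cycling class of either set and are given by level. Mcm10, an initiation factor, stood at 21.3, 12.02 and 0.301 CPM in set 1 and at 16.7, 11.3 and 0.143 CPM in set 2. Mybl2, the B-Myb factor, stood at 19.3, 6.36 and 1.205 CPM in set 1 and at 21.5, 6.46 and 0.0715 CPM in set 2. Ccna2, cyclin A2, was shared by both cycling classes, at 75.5, 113 and 0.602 CPM in set 1 and at 87.2, 104.9 and 0.0715 CPM in set 2. Cdk1, the mitotic kinase, stood at 80.5, 142 and 3.46 CPM in set 1 and at 84.8, 190 and 2.003 CPM in set 2.

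Ccnd2, the D-type cyclin of G1, was lower in both cycling classes. It stood at 111, 109 and 221 CPM in set 1 and at 119, 103 and 263 CPM in set 2, and its ratio over non-cycling cells was 0.502 (0.451 to 0.559) and 0.455 (0.369 to 0.554). At equal depth 35.4% of S-phase-leaning, 28.3% of mitosis-leaning and 51.2% of non-cycling cells of set 1 held a Ccnd2 UMI, and 35.8%, 20.7% and 53.1% in set 2. Unthinned, the Ccnd2 shares were 68.02%, 64.6% and 68.9% in set 1 and 56.6%, 42.9% and 55.9% in set 2. Ccnd3, another D-type cyclin, stood at 39.1, 40.3 and 40.7 CPM in set 1 and at 66.9, 54.9 and 55.7 CPM in set 2, with intervals of the ratio over non-cycling cells that include 1 in both sets (0.785 to 1.17 and 0.899 to 1.58). Myc, a growth factor-induced regulator, stood at 14.4, 24.4 and 20.2 CPM in set 1 and at 27.5, 22.6 and 37.1 CPM in set 2.

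Of 20 measured cycle inhibitors and quiescence genes, 0 were past 2-fold over non-cycling cells in set 1, where 3.73% of all genes were higher and 0.348% lower, and in set 2 0 were higher and 2 lower, Klf2 and Pik3ip1. Their median log2 ratio was -0.16 in set 1 and -0.17 in set 2, beside 0.02 and 0.07 over all genes tested. Btg1, an antiproliferative gene, stood at 614, 678 and 1002 CPM in set 1 and at 2686, 2939 and 4260 CPM in set 2, which is 0.612 (0.585 to 0.641) and 0.630 (0.604 to 0.658) of the non-cycling level. Cdkn1a, which encodes the Cdk inhibitor p21, was higher in S-phase-leaning cells, at 642, 566 and 471 CPM in set 1 and at 326, 244 and 220 CPM in set 2. One S-phase-leaning cell held 9.49% of its Cdkn1a UMIs in set 1 and another held 17.6% in set 2. Klf2, a quiescence factor, was 1.62-fold (1.36 to 1.93) over non-cycling cells in set 1 and 0.423 of them (0.275 to 0.624) in set 2, and 1 cell held 19.3% of the S-phase-leaning UMIs in set 1. Mxd4, a Myc antagonist, stood at 38.6, 65.0 and 75.6 CPM in set 1 and at 46.6, 82.3 and 156 CPM in set 2.

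S-phase-leaning cells also held mitosis transcripts well above the non-cycling level. The rule asks S-phase-leaning cells for proliferation UMIs and non-cycling cells for 0 of them, so this describes the choice. With the 6 rule genes left out, 37 of 45 measured mitosis genes passed 2-fold over non-cycling cells in set 1 and 37 of 43 in set 2, with 0 lower, and the median log2 ratios were 2.05 and 2.30. Nusap1, a spindle protein, stood at 179 CPM in S-phase-leaning, 294 in mitosis-leaning and 3.61 in non-cycling cells of set 1, and at 219, 312 and 1.79 CPM in set 2. Stmn1, a tubulin-binding protein, hardly separated the cycling classes, at 1127, 1064 and 91.1 CPM in set 1 and at 1607, 1516 and 38.9 CPM in set 2. Smc2, a condensin subunit, stood at 331, 361 and 25.9 CPM in set 1 and at 306, 344 and 18.5 CPM in set 2.

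Some mitosis genes outside the rule were lower than in mitosis-leaning cells, which the rule's split by mitosis genes largely fixes. Against mitosis-leaning cells, 0 of 46 mitosis genes were higher and 6 lower in set 1, and 0 of 45 were higher and 7 lower in set 2. Ccnb2, cyclin B2, stood at 54.7, 216 and 4.37 CPM in set 1 and at 45.4, 245 and 1.07 CPM in set 2, with ratios over mitosis-leaning cells of 0.253 (0.216 to 0.296) and 0.185 (0.126 to 0.266). Arl6ip1, a protein of the endoplasmic reticulum membrane, stood at 290, 973 and 169 CPM in set 1 and at 363, 912 and 248 CPM in set 2. Hmmr, which binds spindle microtubules, stood at 58.9, 153 and 0.753 CPM in set 1 and at 40.6, 139 and 0.215 CPM in set 2. Cdkn3, a phosphatase that acts on Cdks, stood at 14.4, 72.1 and 1.96 CPM in set 1 and at 10.8, 58.1 and 0.215 CPM in set 2.

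Promoter words were also counted among the genes past 2-fold. The rule selected on S phase genes of which 4 of 6 held an E2F word. Of its 6 mitosis genes, 4 held the CHR word. The shares below therefore largely describe the choice of cells. Of the 182 genes higher than in non-cycling cells in set 1 that had a promoter in the table, 45 held an E2F word (24.7%, against 5.51% of the genes tested) and 69 the CHR word (37.9%, against 13.9%). In set 2, 54 of 243 held an E2F word (22.2%, against 5.09%) and 55 the CHR word (22.6%, against 13.7%). Over mitosis-leaning cells, 9 of the 13 higher genes of set 1 held an E2F word (69.2%, against 5.83%) and 0 the CHR word, whereas 0 of the 14 lower ones held an E2F word and 8 the CHR word (57.1%, against 14.4%). In set 2, 6 of 22 higher genes held an E2F word (27.3%, against 6.47% of the genes tested) and 3 the CHR word (13.6%, against 14.9%). Of the 11 lower genes of set 2, 1 held an E2F word (9.09%) and 4 the CHR word (36.4%).

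**Figure D3:**
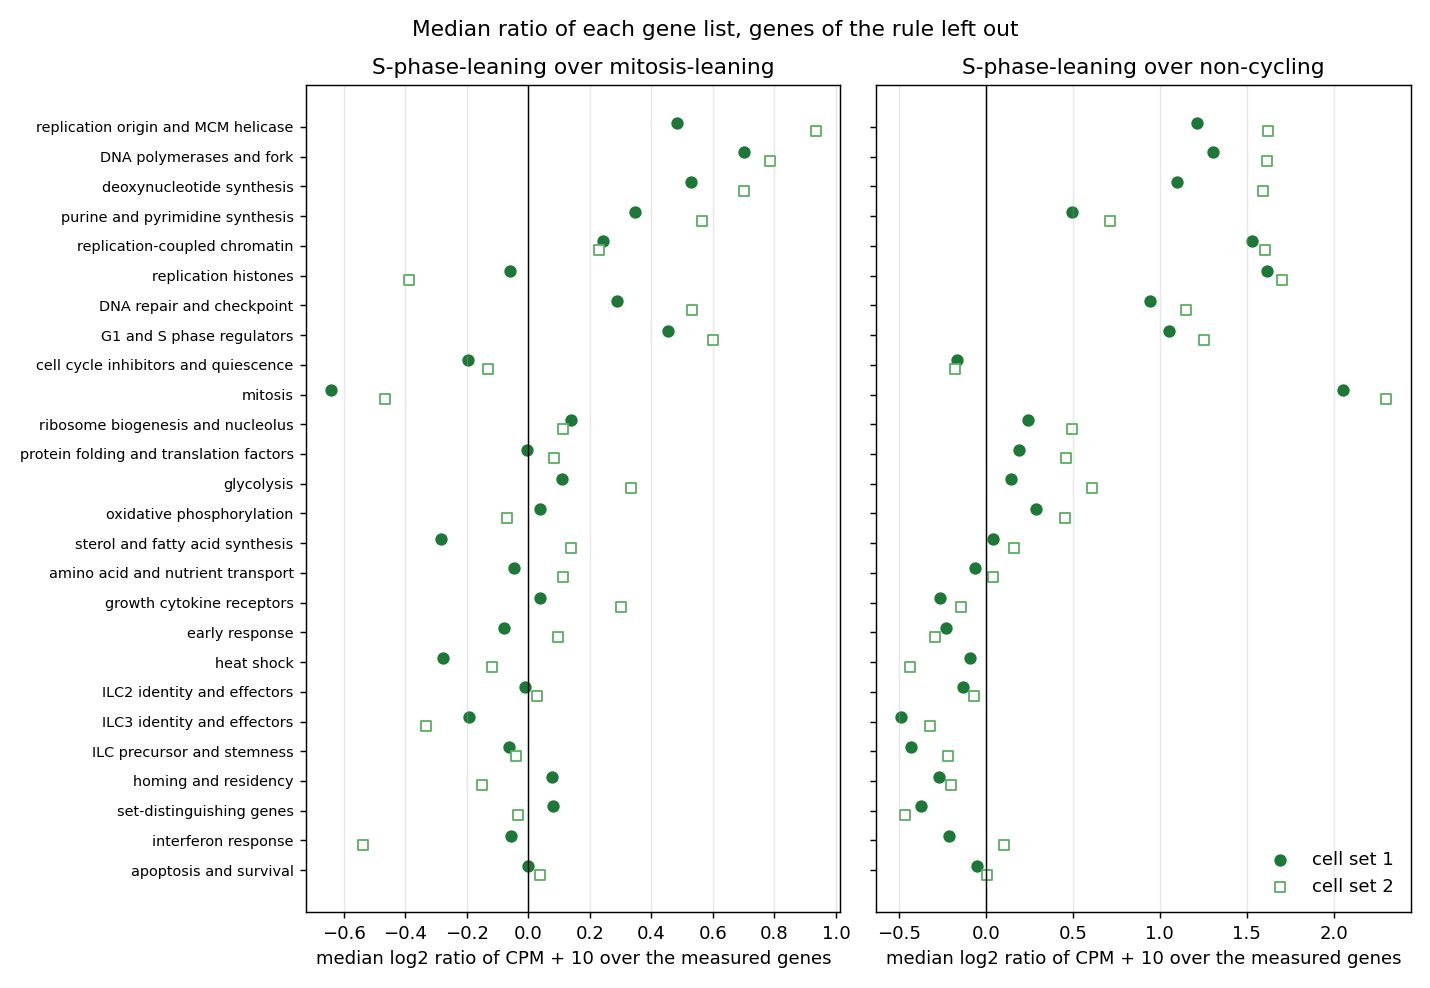
Median log2 ratio of CPM + 10 over the measured genes of each list (x axis), for S-phase-leaning over non-cycling and over mitosis-leaning cells, with both sets as points and the rule genes left out. The replication lists lie to the right of zero in both comparisons (fork genes 1.31 and 1.62 over non-cycling, 0.70 and 0.79 over mitosis-leaning cells), histones lie to the right only over non-cycling cells, and mitosis genes lie to the left over mitosis-leaning cells (-0.64 and -0.46).

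Within the class of set 1, histone transcripts differed more than fork and deoxynucleotide genes between cells with few and with many mitosis UMIs. The 247 cells of set 1 were divided by their mitosis sum into 52 with 0 UMIs, 88 with 1 to 3, 85 with 4 to 9 and 22 with 10 or more. Histones summed to 1717 CPM in the first of these groups, 4444 in the second, 6180 in the third and 7418 in the fourth. Mitosis genes outside the rule summed to 3386, 6065, 8456 and 10558 CPM in that order, which the grouping by mitosis genes fixes and which is no result of its own. Fork genes summed to 1714, 1976, 2016 and 1990 CPM, and deoxynucleotide enzymes to 1182, 1284, 1267 and 1274 CPM. Other lists rose with the mitosis sum. Origin and helicase genes summed to 797, 1082, 1261 and 1294 CPM, and DNA repair and checkpoint genes to 768, 908, 976 and 1166 CPM. Replication-coupled chromatin genes summed to 6039, 8455, 11146 and 11978 CPM. Median UMIs per cell were 13683.5, 15383, 18377 and 18701, and a larger mitosis sum also requires a larger S phase sum under the rule, so depth and position in this order were not separated.

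Set 2 showed the same order in its histones with 25, 40, 16 and 2 cells in the groups. Histones summed to 4546, 5549, 7892 and 8213 CPM. Fork genes summed to 1790, 2076, 2614 and 3057 CPM and were higher in each successive group, unlike in set 1. The last group held 2 cells and is given as a value only. In set 1, cells with a mitosis sum of 0 held 174 CPM of Hist1h1b against 550 CPM in the remaining members, and 22.2 CPM of Ccna2 against 87.1 CPM. Replication genes were mixed. Clspn stood at 87.5 CPM against 166 CPM (ratio 0.528, 0.400 to 0.686), Rrm1 of ribonucleotide reductase at 84.7 CPM against 169 CPM (0.501, 0.378 to 0.653) and Pcna at 108 CPM against 157 CPM (0.692, 0.538 to 0.879). Intervals that include 1 were found for Hells, at 140 CPM against 146 CPM (0.767 to 1.19), and for E2f1, at 37.5 CPM against 35.8 CPM (0.662 to 1.60). In set 2 the intervals of these 5 replication genes all include 1.

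**Figure D4:**
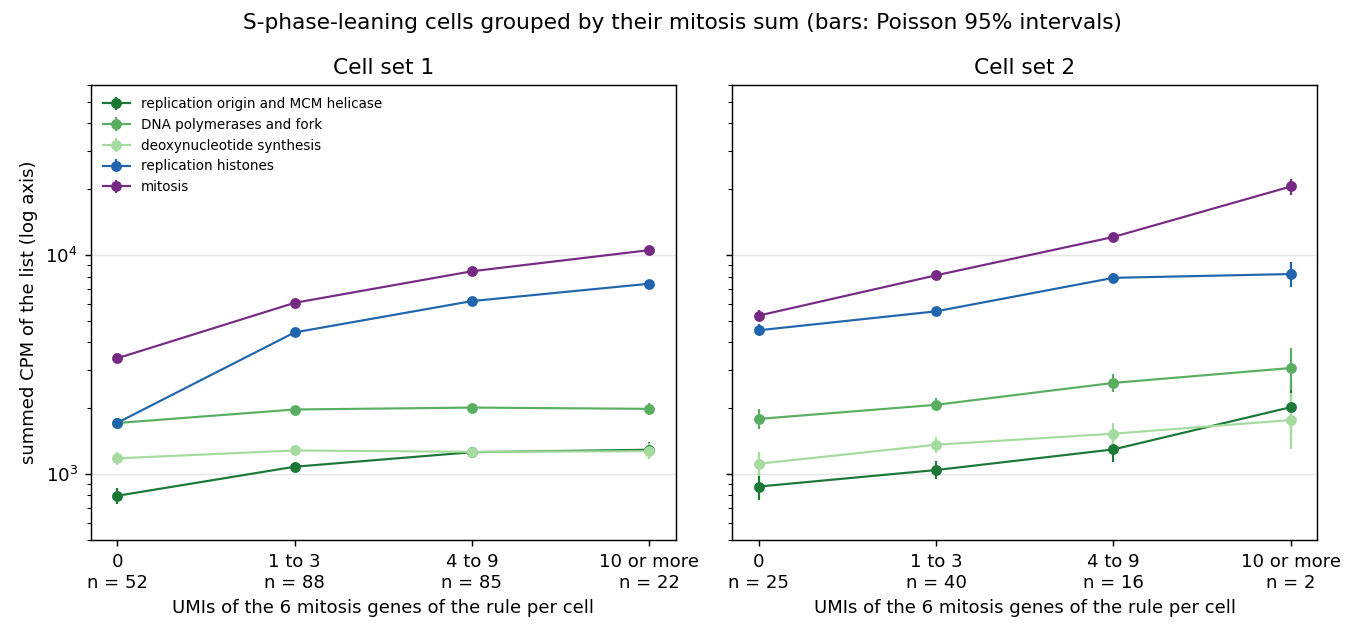
Summed CPM (log axis) of gene lists in S-phase-leaning cells of each set grouped by their mitosis sum (x axis, UMIs per cell, with the number of cells below), with Poisson 95% intervals as bars. In set 1, histones run through 1717, 4444, 6180 and 7418 CPM, while fork genes run through 1714, 1976, 2016 and 1990 CPM. Origin and helicase genes of set 1 run through 797, 1082, 1261 and 1294 CPM, and fork genes of set 2 through 1790, 2076, 2614 and 3057 CPM.

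Some cells without proliferation transcripts also held replication transcripts. Of non-cycling cells, 80 in set 1 and 37 in set 2 had an S phase sum of at least 3. In these the fork genes reached 987 CPM (set 1) and 811 CPM (set 2), below the 1946 and 2152 CPM of S-phase-leaning cells and above the 473 and 394 CPM of the other non-cycling cells. Their histones summed to 681 and 842 CPM, against 4952 and 5888 CPM in S-phase-leaning cells and 765 and 1188 CPM in the other non-cycling cells. They stayed in the non-cycling class, and leaving them out kept the counts of all genes higher and lower than in non-cycling cells within 1.5 times in both sets.

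Growth and energy genes differed far less than replication genes. The median log2 ratio over non-cycling cells was 0.24 in set 1 and 0.50 in set 2 for ribosome biogenesis, 0.14 and 0.61 for glycolysis, and 0.29 and 0.46 for oxidative phosphorylation, each to be read beside the TMM shift of -0.21 in set 2. Of 26 ribosome biogenesis genes, 0 passed 2-fold in set 1 and 3 in set 2. Glycolysis in set 2 came to 0.12 in cells thinned to 4000 UMIs with the rule applied to the thinned counts. Ran, the GTPase of nuclear transport, stood at 662, 691 and 283 CPM in set 1 and at 631, 662 and 192 CPM in set 2. Ranbp1, its binding protein, stood at 302, 193 and 139 CPM in set 1 and at 343, 197 and 79.2 CPM in set 2. These were the 2 members of the folding and translation list past 2-fold in both sets.

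In S-phase-leaning cells ILC2 transcripts as a list stood near the non-cycling level in both sets, though Il1rl1 and Klrg1 were found in few cells. Thinned to 4000 UMIs, Il1rl1 was found in 3.25% of S-phase-leaning and 4.37% of non-cycling cells of set 1. In set 2 it was found in 2.47% and 3.04%. Klrg1 was found in 1.63% and 2.19% in set 1 and in 1.23% and 1.29% in set 2. Il17rb was found in 7.32% and 6.71% in set 1 and in 12.3% and 21.7% in set 2. Before thinning, the Il1rl1 shares were 8.10% and 6.95% in set 1 and 4.82% and 3.18% in set 2. Thinned to 4000 UMIs, ILC2 markers held more UMIs than ILC3 markers in 92.7% of S-phase-leaning cells of set 1 (88.7 to 95.6%), against 93.3% of non-cycling cells (91.2 to 95.05%). In set 2 the shares were 93.8% (86.2 to 98.0%) and 95.3% (94.3 to 96.2%). Mitosis-leaning cells gave 91.1% in set 1 and 94.8% in set 2. The ILC2 list was the more abundant in every class. Its median was 17 thinned UMIs per S-phase-leaning cell of set 1, against 0 for the ILC3 list. The share therefore does not tell the classes apart and depends on which markers were listed. Of 19 measured ILC2 genes, 0 passed 2-fold in set 1, and 0 were higher and 1 lower in set 2. Over all genes, 3.73% were higher and 0.348% lower in set 1, and 4.22% and 0.782% in set 2. Among 19 genes, counts this small lie near those shares. Rora, a nuclear receptor that ILC2s require, stood at 1595 CPM in S-phase-leaning, 1527 in mitosis-leaning and 1811 in non-cycling cells of set 1, and at 1621, 1675 and 1768 CPM in set 2. Gata3, the ILC2 lineage factor, was somewhat lower, at 489, 604 and 624 CPM in set 1 and at 410, 481 and 588 CPM in set 2, with ratios over non-cycling cells of 0.783 (0.742 to 0.827) and 0.696 (0.623 to 0.776).

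Effector genes of ILC2s were transcribed in S-phase-leaning cells. Areg, the epithelial growth factor amphiregulin, stood at 679, 531 and 644 CPM in set 1 and at 956, 1127 and 942 CPM in set 2. Il13, a type 2 cytokine, stood at 248, 373 and 206 CPM in set 1 and at 397, 323 and 343 CPM in set 2. In thinned cells, 30.5% of S-phase-leaning, 41.1% of mitosis-leaning and 28.6% of non-cycling cells of set 1 held an Il13 UMI, and 50.6%, 39.7% and 41.0% in set 2. Before thinning, Il13 was found in 51.8%, 62.98% and 40.5% of the 3 classes of set 1 and in 59.04%, 63.5% and 41.9% in set 2. Il5, the eosinophil cytokine, stood at 133, 140 and 156 CPM in set 1 and at 265, 145 and 229 CPM in set 2, and a single S-phase-leaning cell held 27.8% of its UMIs in set 1 and 26.1% in set 2. Calca, the gene of the neuropeptide CGRP, stood at 573, 456 and 748 CPM in set 1 and at 71.7, 66.2 and 151 CPM in set 2, so its gap between the sets was present in cycling cells as well.

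Pdcd1, the PD-1 receptor, carried by ILC precursors and activated ILC2s, was higher in S-phase-leaning than in mitosis-leaning cells in both sets, short of 2-fold. It stood at 79.7, 47.4 and 82.5 CPM in set 1 and at 190, 95.2 and 88.0 CPM in set 2. The ratio over mitosis-leaning cells was 1.68 (1.37 to 2.07) and 1.99 (1.47 to 2.74), and that over non-cycling cells 0.966 (0.839 to 1.11) and 2.16 (1.82 to 2.55). At equal depth a Pdcd1 UMI was found in 22.4% of S-phase-leaning (17.3 to 28.1%), 6.11% of mitosis-leaning (3.09 to 10.7%) and 16.3% of non-cycling cells (13.6 to 19.3%) of set 1. In set 2 the shares were 40.7% (29.9 to 52.2%), 18.97% (9.87 to 31.4%) and 17.96% (16.3 to 19.7%). The intervals of the S-phase-leaning and mitosis-leaning shares of set 2 overlap. Without thinning the shares were 37.7%, 22.1% and 23.0% in set 1 and 49.4%, 31.7% and 17.0% in set 2.

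Il2ra, the high-affinity IL-2 receptor chain, was past 2-fold over mitosis-leaning cells in set 2 alone, at 149, 53.3 and 108 CPM, where 1 cell held 25 of the 125 S-phase-leaning UMIs. In set 1 it stood at 113, 97.9 and 140 CPM. Serpinb6b and Serpinb1a, intracellular protease inhibitors, were also named in set 2, with 160, 45.2 and 92.3 CPM and with 277, 88.8 and 193 CPM. In set 1 they stood at 47.3, 38.9 and 85.8 CPM and at 94.3, 80.9 and 89.9 CPM. Whether the sets differ in these ratios was not tested.

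**Figure D5:**
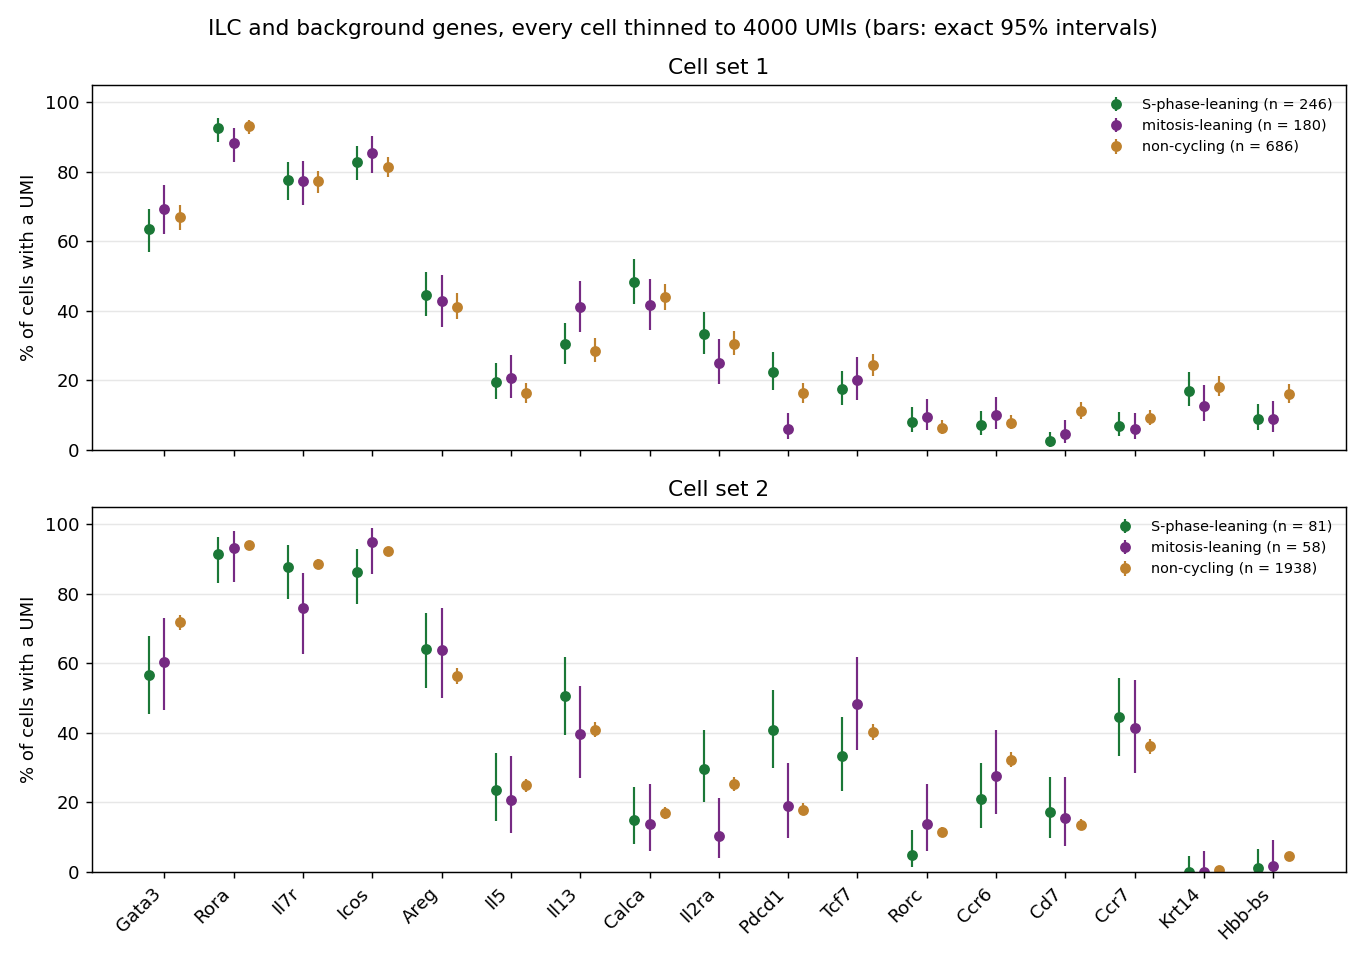
Share of cells with a UMI (y axis, %) of ILC genes and of genes foreign to ILCs in S-phase-leaning, mitosis-leaning and non-cycling cells, every cell thinned to 4000 UMIs, with exact 95% intervals as bars. Rora was found in 92.7% of S-phase-leaning and 93.1% of non-cycling cells of set 1, and Pdcd1 in 22.4%, 6.11% and 16.3% of the 3 classes.

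The 4 lower genes shared by the sets were 28.6% of the set 1 list and 9.09% of the set 2 list, while 0.214% and 0.673% of the genes counted in both sets were lower. Tcp11l2 and Kdm5b were the 2 shared ones apart from the haemoglobin genes Hbb-bs and Hba-a1. Tcp11l2, for which no role is given here, stood at 6.68, 9.90 and 39.5 CPM in set 1 and at 9.56, 24.2 and 77.1 CPM in set 2, with ratios of 0.169 (0.110 to 0.252) and 0.124 (0.0534 to 0.245). Kdm5b, a demethylase of histone H3, stood at 14.6, 20.1 and 57.1 CPM in set 1 and at 3.58, 11.3 and 42.0 CPM in set 2, the last class holding 587 UMIs and the first 3.

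The ILC1 and NK marker list summed to 213 CPM in S-phase-leaning, 163 in mitosis-leaning and 231 in non-cycling cells of set 1, and to 523, 321 and 331 CPM in set 2. Some single genes were lower in set 1. Cd7, a lymphoid precursor and NK marker, stood at 9.90, 17.7 and 59.0 CPM in set 1 and at 49.0, 51.6 and 52.0 CPM in set 2, which is 0.168 (0.118 to 0.233) and 0.942 (0.670 to 1.29) of the non-cycling level. Thinned, 2.44% of S-phase-leaning, 4.44% of mitosis-leaning and 11.1% of non-cycling cells of set 1 held a Cd7 UMI, and 17.3%, 15.5% and 13.6% in set 2. Unthinned, the Cd7 shares were 9.72%, 12.2% and 15.4% in set 1 and 25.3%, 31.7% and 15.5% in set 2. Tyrobp and Fcer1g, signalling adaptors of NK receptors, stood at 22.5, 10.6 and 89.3 CPM and at 46.3, 45.6 and 133 CPM in set 1. Hopx, a transcriptional cofactor, stood at 18.8, 11.7 and 77.3 CPM in set 1 and at 545, 308 and 518 CPM in set 2. Xcl1, a chemokine, was named too, but 1 cell held 80.3% of its S-phase-leaning UMIs.

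Other genes were lower in CPM in set 2. Ptpn13, a phosphatase, stood at 17.9, 22.6 and 104 CPM in set 2 and at 226, 186 and 273 CPM in set 1. Il4, a type 2 cytokine, stood at 2.39, 9.68 and 31.1 CPM in set 2, from 2 UMIs in S-phase-leaning and 435 in non-cycling cells, and at 73.8, 89.1 and 73.5 CPM in set 1. Il17f and Cd163l1 are markers of type 3 and of gamma delta lymphocytes. In set 2 they stood at 3.58, 11.3 and 28.5 CPM and at 5.97, 17.8 and 34.8 CPM. The Il17f values came from 3 UMIs in S-phase-leaning, 7 in mitosis-leaning and 398 in non-cycling cells. Unthinned, Il17f was found in 3.61% of S-phase-leaning, 1.59% of mitosis-leaning and 1.98% of non-cycling cells of set 2. Thinned, the Il17f shares were 1.23%, 1.72% and 1.75%. Tph1, the enzyme that begins serotonin synthesis, stood at 2.39, 3.23 and 32.8 CPM in set 2 and at 4.21, 5.66 and 11.6 CPM in set 1. The class held 83 cells in set 2, and the intervals do not cover the sampling of cells.

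Transcripts of other skin and blood cells were counted with marker lists. Erythroid and platelet markers summed to 48.8 CPM in S-phase-leaning, 42.4 in mitosis-leaning and 250.01 in non-cycling cells of set 1, and to 5.97, 25.8 and 267 CPM in set 2, and 1 non-cycling cell held 81.0% of the non-cycling Hbb-bs UMIs of set 1 and 1 held 67.2% in set 2. Keratinocyte markers summed to 243, 219 and 298 CPM in set 1 and to 83.6, 59.7 and 63.4 CPM in set 2. A Krt14 UMI was found in 17.1% of thinned S-phase-leaning, 12.8% of mitosis-leaning and 18.2% of non-cycling cells of set 1, and in 0 of 81, 0 of 58 and 0.671% in set 2, where 0 of 81 cells allows a share of up to 3.70% with a UMI at that depth (3 cells of 81). Before thinning, Krt14 was found in 49.8%, 43.6% and 35.3% of the 3 classes of set 1 and in 0%, 1.59% and 0.924% in set 2. Macrophage markers summed to 7.43 CPM in S-phase-leaning cells of set 1, with 4 of 10 at 0, and all 10 were at 0 in set 2. The alpha beta T list, whose Cd3g is shared with ILCs, summed to 1144, 1578 and 1346 CPM in set 1 and to 1295, 1511 and 1663 CPM in set 2. The gamma delta T list summed to 116, 136 and 141 CPM in set 1 and to 231, 258 and 281 CPM in set 2. In thinned cells a Trdc UMI was found in 10.6%, 12.8% and 5.39% of the 3 classes of set 1 and in 18.5%, 17.2% and 15.8% in set 2. A Trac UMI was found in 3.25%, 3.33% and 4.66% in set 1 and in 11.1%, 6.90% and 7.07% in set 2. Scrublet called 0 S-phase-leaning cells as doublets, and it called 7 cells of set 1 and 0 of set 2 in all, so few that the caller is taken not to have worked. The 4 barcodes that occurred in both sets belonged to 0 S-phase-leaning cells. Of the 36 cells above the 99th percentile of UMIs in set 2, 9 were S-phase-leaning, and 5 of 15 in set 1. Leaving these cells out kept the counts of all genes past 2-fold in both comparisons within 1.5 times.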

How the data were processed

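The authors deposited 1 table of UMI counts, whole numbers of molecules for 18786 genes in 5246 cells, with no scaling seen in the values. The mm10 build, Seurat 4.1.0 and Cell Ranger 3.1.0 are named per the submitters' processing notes, without settings. The smallest deposited cell held 500 UMIs. Cells at or below 10% mitochondrial UMIs were kept. UMIs were summed over the cells of a class and set and given per 1000000 UMIs (CPM) with exact Poisson intervals. Intervals of ratios came from the conditional exact binomial interval, those of shares from Clopper-Pearson. These cover counting error alone. Where a count was 0, the limit used was 3 UMIs, or 3 cells for a share. Deeper classes have narrower intervals, so set 2, with 837063 UMIs in the S-phase-leaning class, is the less precise. Ratios were checked on simulated counts.

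The comparison of the ages that the labels imply was not made, because no suffix names an age. The members and the 26 gene lists were chosen with earlier results of these data known. Named genes were the 10 largest and 10 smallest ratios of CPM + 10 per set and comparison at 100 or more UMIs, without haemoglobin, antigen receptor, ribosomal protein, mitochondrial and unnamed genes, and list members by the size of their ratio. Not all of them are printed, and some genes are not reported here. Ccnd2, Ccnd3, Cdk1, Cdkn1a, Dbf4, Hist1h1c, Mcm10, Myc, Rrm1, Rrm2b and Samhd1 lie outside that rule and were chosen from the lists after their values were seen. Alternatives changed the mitochondrial limit, the cutoffs of the rule, depth, doublet handling, pseudocount, UMI minimum, weighting of cells and scaling (TMM of edgeR 4.0.16). Gene positions came from GENCODE M21 and promoters from RefSeq. The work used Python 3.11.15, numpy 2.4.6, scipy 1.17.1, pandas 2.3.3 and scanpy 1.11.5 (Scrublet).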

Additional observations from a re-analysis of the deposited data

How the results depend on the processing

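No paired analysis was possible because each age had 1 library and no cell was assigned to an age. Of 152 values of the main shares, depths and counts under the alternatives, 116 stayed near the value reported and 36 moved. The main values were shares of 17.1% and 2.37%, 257 genes higher and 24 lower than in non-cycling cells in set 1, 313 and 58 in set 2, and 17 higher and 15 lower than in mitosis-leaning cells in set 1, 29 and 17 in set 2. With cycling cells from 2 UMIs the shares were 20.2% and 3.05% and 33 genes were lower than in non-cycling cells in set 2. With cycling cells from 6 UMIs the shares were 13.3% and 1.80%, the median depth of set 1 was 16825.5 UMIs, and 104 genes were lower in set 2. With a margin of at least 3 UMIs between the sums, the shares were 14.3% and 1.80%, 27 genes were higher than in mitosis-leaning cells in set 1 and 89 lower than in non-cycling cells in set 2. With the rule applied to cells thinned to 4000 UMIs the share of set 1 was 9.92% and every cell of both sets held 4000 UMIs by construction. Then 141 genes were higher and 45 lower than in non-cycling cells in set 1, and 258 lower in set 2, while 10 were higher and 8 lower than in mitosis-leaning cells in set 1, and 5 and 6 in set 2. Against non-cycling cells, CPM + 1 gave 66 lower genes in set 1 and 558 higher and 317 lower in set 2, and against mitosis-leaning cells 56 higher and 44 lower in set 1. With no minimum of UMIs, 480 genes were higher than in non-cycling cells in set 2, 24 lower than in mitosis-leaning cells in set 1, and 150 higher and 92 lower in set 2. TMM factors gave 107 lower genes in set 2. Values thinned to 4000 UMIs with classes from all UMIs, an alternative chosen after seeing the data, gave 126 higher genes than in non-cycling cells in set 1 and 137 lower in set 2, 9 lower than in mitosis-leaning cells in set 1, and 7 higher and 8 lower in set 2. Fewer UMIs enter the thinned counts by construction, and otherwise the cause was not tested. Some ratios reversed under thinning with the rule on thinned counts, namely Ccl1 over mitosis-leaning cells in set 1 (0.25, against -1.68), Krtap8-1 over non-cycling cells in set 2 (0.41, against -1.56) and Fam46a over mitosis-leaning cells in set 2 (0.11, against -1.20). Krtap8-1 was also reversed with thinned values alone (0.16). The median of the fork genes over non-cycling cells ranged from 1.23 to 1.83 in set 1 and from 1.44 to 2.40 in set 2 over all alternatives, and that of the same genes over mitosis-leaning cells from 0.64 to 0.93 and from 0.73 to 1.10.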

Other observations

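The other gene lists gave these median log2 ratios of S-phase-leaning over non-cycling cells. Early response genes, such as Fos and Jun, stood at -0.23 in set 1 and -0.29 in set 2, with 0 of 20 past 2-fold in set 1 and 1 of 20 higher in set 2. Heat shock genes stood at -0.09 and -0.43, genes of homing and residency at -0.27 and -0.20, ILC precursor genes at -0.43 and -0.22, ILC3 genes at -0.49 and -0.32, interferon response genes at -0.21 and 0.10, and apoptosis and survival genes at -0.05 and 0.01. Gzmb, the cytotoxic granule protease granzyme B, stood at 109 CPM in S-phase-leaning, 67.8 in mitosis-leaning and 40.1 in non-cycling cells of set 2, where 1 cell held 60.4% of the S-phase-leaning UMIs. In set 1 it stood at 4.70, 3.89 and 9.94 CPM.

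Xist and a Y-linked gene were found in the same cell in 2.83% of S-phase-leaning (1.15 to 5.75%), 7.18% of mitosis-leaning (3.88 to 11.97%) and 2.32% of non-cycling cells (1.35 to 3.68%) of set 1. In set 2 the shares were 2.41% (0.293 to 8.43%), 4.76% (0.993 to 13.3%) and 1.06% (0.722 to 1.502%). Leaving such cells out kept each share, median depth and count of genes past 2-fold near its reported value. Median depths differ between these classes, as given above.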
